A study of Homo sapiens with 12 samples.

Results

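The genes described here encode the pyruvate dehydrogenase complex and its kinase PDK4, enzymes of the tricarboxylic acid (TCA) cycle and of mitochondrial fatty acid oxidation, and the uncoupling proteins UCP2 and UCP3. They were taken from a list of 41 genes in pathways that estrogen-related receptors are known to regulate, out of 20046 genes named on the arrays, with the brightest probe standing for each gene. The list was chosen with earlier results of these data known, so its counts beside the shares of all genes are a description. A probe was found for 39 of the 41. SDHB and FH had no probe in the annotation used and were not analysed here. PDK4, ACADL and UCP3 stayed near the background, and the other 36 genes were detected on all 12 arrays and tested in each cell line.

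The pyruvate dehydrogenase complex turns pyruvate into acetyl-CoA, which the TCA cycle oxidizes in the mitochondrial matrix. Long-chain fatty acids enter mitochondria bound to carnitine and are shortened by beta-oxidation, which gives acetyl-CoA to the cycle and electrons to the electron transfer flavoprotein. Estrogen-related receptors are orphan nuclear receptors that act with the coactivators PGC-1alpha and PGC-1beta on many of these genes, as is best known from heart, muscle and brown fat.

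ESRRG, the gamma member of this receptor family, was overexpressed (OE) for 3 days from a lentiviral vector in the cell lines AGS and MKN45, which are established lines from human gastric cancers. The groups were AGS control, AGS ESRRG OE, MKN45 control and MKN45 ESRRG OE, with 3 samples and 3 arrays in each of the 4, and the control cells had also received a lentiviral vector. The labels name no separate cultures behind the 3 samples of each group, so the p-values reflect the spread among these samples alone, and that spread may be technical. In bulk RNA, fewer cells of a kind and less RNA per cell cannot be told apart.

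Between 18795 and 20397 of 47323 probes were detected per array. The epithelial marker EPCAM was bright in every group (means from 13.10 to 13.40 log2 units), the leukocyte marker PTPRC was detected on 0 arrays and the endothelial marker PECAM1 on 1. Of the 5 epithelial markers 1 rose and 2 fell in each line, among them KRT8 (-0.84 and -0.82). Of all genes tested 24.1% rose and 27.2% fell in AGS, and 20.1% rose and 20.9% fell in MKN45. Of the 7 markers of other cell types the 3 that could be tested were COL1A1, HBB and ACTA2. ACTA2 was detected on every array and rose (0.76 and 0.58), from a mean of 8.53 to 9.30 log2 units in AGS and from 9.09 to 9.67 in MKN45. COL1A1 lay near the background (7.11 and 7.18 in AGS, 7.04 and 7.01 in MKN45) and passed in neither line. HBB was detected on 3 control and 0 ESRRG OE arrays of each line. It thus entered the test through the control group alone, in which it had to be higher. Its call in AGS (7.58 in control against 6.87 log2 units) is therefore not read as a fall. In MKN45 HBB did not pass (7.03 against 6.87). The part of these markers in the results below was not tested. The brightest ESRRG probe was at 7.27 log2 units in AGS control and 6.90 in AGS ESRRG OE samples, and at 6.91 and 6.94 in MKN45, where it was detected on 1 of 3 arrays of each group. Where this probe lies relative to the cDNA of the vector is not given in the sources used here, so it does not check the labels. The control samples labelled AGS and MKN45 correlated at r = 0.981 to 0.985 across 11563 genes, above the 0.947 to 0.952 between AGS control and AGS ESRRG OE samples, and only 68 genes differed over 2-fold between the control groups, against 433 for ESRRG OE in AGS and 225 in MKN45. MET, which MKN45 cells are known to carry in amplified form and which was looked up after these values were seen, was at 9.06 and 9.24 log2 units in the AGS and MKN45 controls. The names AGS and MKN45 below are those of the labels, and the identity of the lines was not tested.

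In AGS cells, 20 of the 36 genes rose on ESRRG overexpression, IDH3B and UCP2 fell, and 14 did not pass the test (limma, adjusted p under 0.05 over all genes tested). Of all 10920 genes tested in this line 24.1% rose and 27.2% fell, 51.3% in all. The median log2 fold change, ESRRG OE minus control, was 0.27 over the 36 genes and -0.02 over all genes, and 28 of the 36 changes were above 0, against 47.9% of all genes. All 3 ESRRG OE samples lay above all 3 control samples for 22 of the genes and below them for 2, against 26.9% and 30.3% of all genes.

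In MKN45 cells, 23 of the 36 genes rose, UCP2 alone fell, and 12 did not pass the test. Of all 11240 genes tested in this line 20.1% rose and 20.9% fell. The median log2 fold change was 0.34 over the 36 genes and -0.01 over all genes, with 33 of 36 changes above 0, against 48.1% of all genes. The groups did not overlap for 25 of the genes in the higher and 1 in the lower direction, against 25.2% and 25% of all genes.

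When the arrays were instead scaled to one median, without quantile normalization, the median of all genes moved to 0.10 in AGS and 0.16 in MKN45. The share of rises among all genes that passed the test then went from 47% to 70.7% in AGS and from 49.1% to 88.7% in MKN45. Under that scaling the median of the 36 genes lay 0.30 above that of all genes in AGS and 0.47 above it in MKN45, against 0.29 and 0.35 with quantile normalization.

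**Figure D1:**
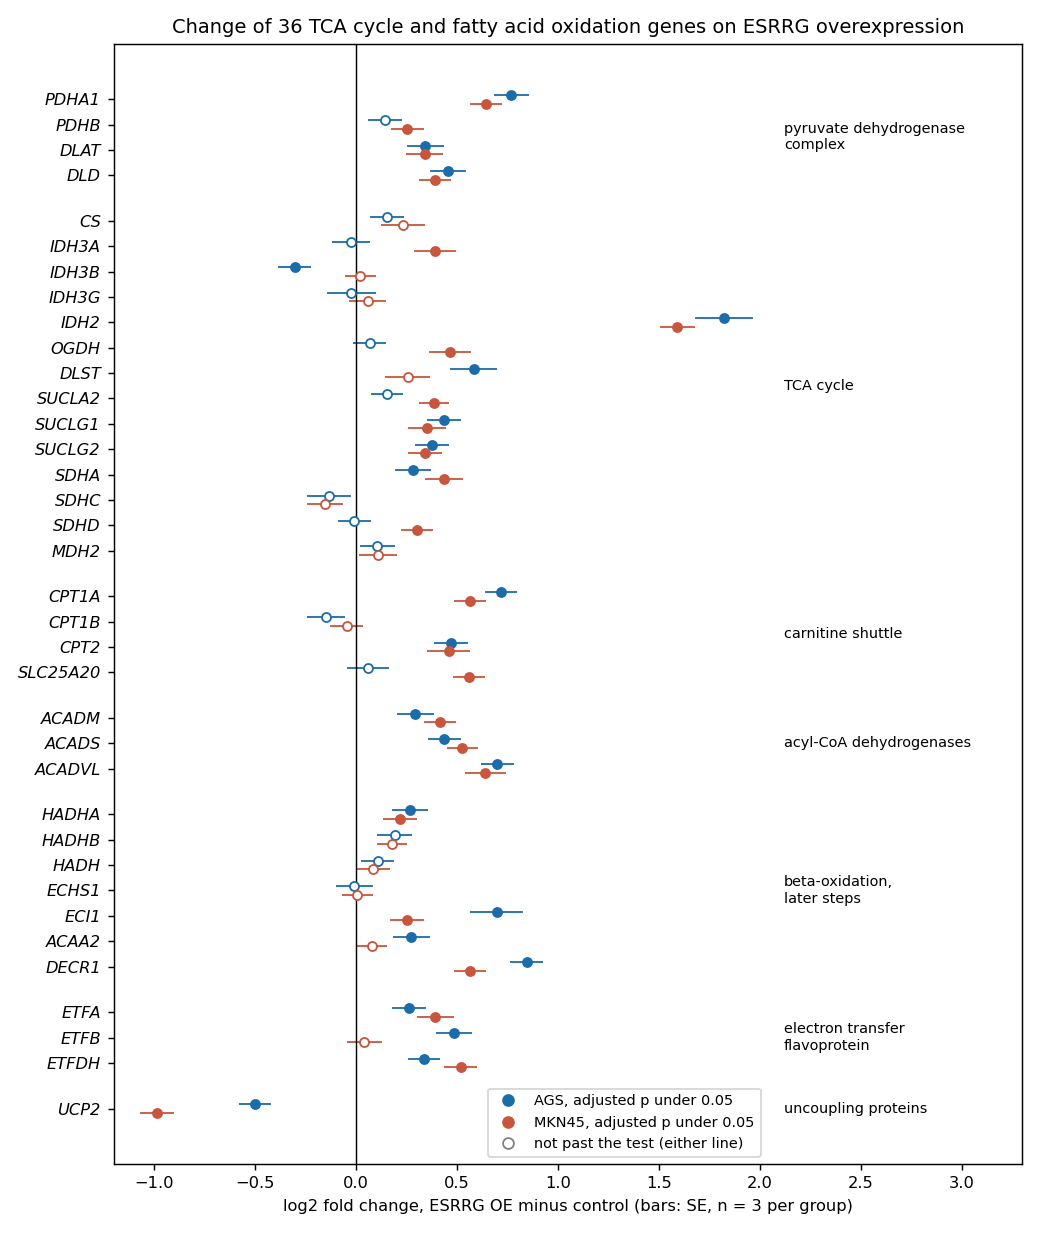
Log2 fold change, ESRRG OE minus control (horizontal axis), of the 36 tested genes ordered by role, in AGS (blue) and MKN45 (red), with bars for the SE (n = 3 per group) and filled points for genes past the test. IDH2 lies farthest to the right in both lines (1.82 and 1.59) and UCP2 farthest to the left (-0.50 and -0.98).

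PDHA1, DLAT, DLD, IDH2, SUCLG1, SUCLG2, SDHA, CPT1A, CPT2, ACADM, ACADS, ACADVL, HADHA, ECI1, DECR1, ETFA and ETFDH rose in both lines, 17 of the 36 genes. UCP2 fell in both. CS, IDH3G, SDHC, MDH2, CPT1B, HADHB, HADH and ECHS1, 8 genes, passed the test in neither line, and no gene passed in opposite directions. Of all genes tested, 24.1% rose in AGS and 20.1% in MKN45. These are shares in a single line. The shares of all genes that passed in both lines or in neither were not counted, so the counts of 17 and 8 cannot be set against all genes. Across the 36 genes the changes in the lines correlated at Pearson r = 0.816 (Spearman rho 0.647), and across the 10597 genes tested in both lines at r = 0.813 (rho 0.733). These are correlations across genes, which are not independent replicates, and the lines share no arrays.

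PDHA1 encodes the E1 alpha subunit of the pyruvate dehydrogenase complex, whose phosphorylation switches the complex off. Its log2 intensity was 10.45, 10.50 and 10.28 in AGS control and 11.12, 11.20 and 11.22 in AGS ESRRG OE samples. The MKN45 values were 10.67, 10.53 and 10.67 in control and 11.22, 11.27 and 11.32 in ESRRG OE samples. The groups did not overlap in either line, and every ESRRG OE sample lay above every control sample of both lines. The log2 fold change was 0.77 (SE 0.09, 1.71-fold, adjusted p = 2.205e-06, limma) in AGS and 0.64 (SE 0.08, 1.56-fold, adjusted p = 2.49e-05, limma) in MKN45.

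The other subunits had smaller fold changes. DLD, the E3 subunit that this complex shares with the 2-oxoglutarate dehydrogenase complex, rose by 0.46 in AGS and 0.39 in MKN45. DLAT, the E2 acetyltransferase, rose by 0.34 in each line, from 8.36 to 8.61 in control to 8.70 to 8.88 in ESRRG OE samples of AGS, although in MKN45 the call was lost without control replicate 3 (adjusted p = 0.0504, limma). PDHB, the E1 beta subunit that pairs with PDHA1, was at 11.34, 11.16 and 11.31 in AGS control and 11.42, 11.36 and 11.46 in AGS ESRRG OE samples. These groups did not overlap, but the difference of 0.14 did not pass (adjusted p = 0.166, limma). In MKN45, PDHB was at 11.26, 11.32 and 11.22 in control and 11.63, 11.51 and 11.43 in ESRRG OE samples, a rise of 0.25 (adjusted p = 0.0218, limma). That call was lost without control replicate 3 or ESRRG OE replicate 1 or 2 of MKN45 (adjusted p = 0.0730, 0.106 and 0.0597). Of the 4 subunits, 3 thus rose in AGS and 4 in MKN45, beside 24.1% and 20.1% of all genes.

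PDK4, a kinase that inactivates the complex and a widely used target gene of estrogen-related receptors, was not measurable. Its values were 6.67, 6.84 and 6.70 in AGS control, 6.81, 6.61 and 6.80 in AGS ESRRG OE, 7.04, 6.74 and 6.88 in MKN45 control and 6.78, 6.79 and 6.74 in MKN45 ESRRG OE samples. Only 1 of these 12 arrays, an MKN45 control, had a detected value, so no fold is given. Of the other kinases, PDK1 was detected on 0 arrays, and PDK2 differed by -0.11 in AGS and 0.00 in MKN45 without passing. PDK3 fell by 0.44 in AGS (adjusted p = 0.00121, limma) and differed by -0.24 in MKN45 (adjusted p = 0.0734). PDHX, the E3-binding protein of the complex, rose by 0.56 in AGS and 0.63 in MKN45.

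IDH2, the mitochondrial NADP-dependent isocitrate dehydrogenase, rose more than any other of the 36 genes in both lines. Its log2 intensity was 8.53, 8.80 and 8.45 in AGS control and 10.66, 10.60 and 9.99 in AGS ESRRG OE samples. The corresponding MKN45 values were 7.91, 7.95 and 8.15 in control and 9.66, 9.53 and 9.60 in ESRRG OE samples. The groups stood more than 1 log2 unit apart in both lines, with AGS ESRRG OE replicate 3 the lowest of its group. The rise was 1.82 (SE 0.14, 3.54-fold, adjusted p = 6.36e-08, limma) in AGS and 1.59 (SE 0.09, 3.01-fold, adjusted p = 8.895e-09, limma) in MKN45. IDH1, its cytosolic counterpart, which is on the list of neighbouring genes and is named here after its values were seen, rose by 1.17 in AGS and 0.87 in MKN45.

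The NAD-dependent isocitrate dehydrogenase, which carries the cycle's own step, showed smaller changes. It is built from the catalytic subunit IDH3A with IDH3B and IDH3G. IDH3A was at 8.47, 8.15 and 8.47 in AGS control and 8.37, 8.33 and 8.32 in AGS ESRRG OE samples, which overlapped. In MKN45 it was at 8.83, 8.36 and 8.59 in control and 9.03, 8.93 and 8.98 in ESRRG OE samples, a rise of 0.39 (adjusted p = 0.00853, limma). IDH3B was at 10.92, 11.05 and 11.02 in AGS control and 10.74, 10.62 and 10.72 in AGS ESRRG OE samples, with no overlap, and fell by 0.30 (adjusted p = 0.00576, limma). For MKN45 the values were 11.03, 10.94 and 10.97 in control and 11.03, 11.04 and 10.93 in ESRRG OE samples, which overlapped. The fall of IDH3B in AGS did not pass with the arrays scaled to one median (-0.14, adjusted p = 0.286). IDH3G differed by -0.02 in AGS and 0.06 in MKN45, neither past the test, while its dimmer probe, detected on 7 of 12 arrays, fell by 0.24 in AGS (adjusted p over probes = 0.0278, limma).

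The 2-oxoglutarate dehydrogenase complex holds OGDH as E1 and DLST as E2. OGDH was at 8.88, 8.89 and 8.84 in AGS control and 9.02, 8.84 and 8.96 in AGS ESRRG OE samples, which overlapped, and at 8.87, 8.70 and 9.02 against 9.38, 9.47 and 9.13 in MKN45, which did not. It rose by 0.47 in MKN45 (adjusted p = 0.00267, limma) and differed by 0.07 in AGS. DLST rose by 0.58 in AGS (adjusted p = 5.94e-04, limma), from 8.82, 8.84 and 9.14 in control to 9.62, 9.68 and 9.24 in ESRRG OE samples. In MKN45 the DLST groups overlapped (8.79, 8.88 and 8.88 against 9.13, 9.35 and 8.83), and the difference of 0.26 did not pass (adjusted p = 0.0788, limma). Without MKN45 ESRRG OE replicate 3, the lowest of its group, DLST passed in this line (0.39, adjusted p = 0.00399).

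Succinyl-CoA synthetase pairs SUCLG1 with either SUCLA2, for ATP, or SUCLG2, for GTP. SUCLG1 rose by 0.44 in AGS and 0.35 in MKN45, and SUCLG2 by 0.38 and 0.34. SUCLA2 was at 10.21, 10.22 and 10.12 in AGS control and 10.30, 10.31 and 10.40 in AGS ESRRG OE samples. On the MKN45 arrays it was at 10.14, 10.12 and 10.23 in control and 10.55, 10.57 and 10.52 in ESRRG OE samples. Neither pair of groups overlapped, and the change passed in MKN45 (0.39, adjusted p = 0.0011, limma) but not in AGS (0.15, adjusted p = 0.122). A second SUCLA2 probe rose in both lines (0.33 and 0.44, adjusted p over probes = 0.0277 and 8.25e-04, limma).

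Succinate dehydrogenase, which is also respiratory complex II, was measured through its flavoprotein SDHA and its membrane anchors SDHC and SDHD. SDHA rose by 0.28 in AGS and 0.43 in MKN45, while its second probe, of similar brightness, rose by 0.30 in AGS (adjusted p over probes = 0.00988, limma) and did not pass in MKN45 (0.17, 0.163). The AGS call for SDHA was lost without control replicate 3 or ESRRG OE replicate 1 or 2 of AGS (adjusted p from 0.0573 to 0.0761, limma). SDHD was at 9.91, 9.79 and 9.78 in AGS control and 9.78, 9.80 and 9.88 in AGS ESRRG OE samples. The MKN45 values were 9.90, 10.03 and 9.98 in control and 10.24, 10.36 and 10.22 in ESRRG OE samples. The SDHD groups overlapped in AGS (-0.01) and stood apart in MKN45, where it rose by 0.30 (adjusted p = 0.00753, limma). SDHC differed by -0.13 in AGS and -0.15 in MKN45, neither past the test, although its dimmer probe fell in both lines (-0.73 and -0.30, adjusted p over probes = 6.15e-06 and 0.0140, limma). Without MKN45 control replicate 2 the brighter SDHC probe also passed (-0.24, adjusted p = 0.0340).

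CS, the citrate synthase that opens the cycle, and MDH2, the malate dehydrogenase that closes it, passed in neither line. CS differed by 0.15 in AGS and 0.23 in MKN45 and passed in MKN45 without control replicate 1 (0.33, adjusted p = 0.0364, limma). Its dimmer probes rose in MKN45 (0.34 and 0.39, adjusted p over probes = 0.0490 and 0.00375) and did not pass in AGS. MDH2 differed by 0.11 in each line, with overlapping groups. Of the 14 genes of the cycle tested, 5 rose and 1 fell in AGS, with a median of 0.13, and 8 rose in MKN45, with a median of 0.32. Among all genes tested, 24.1% rose and 27.2% fell in AGS, and 20.1% rose and 20.9% fell in MKN45.

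**Figure D2:**
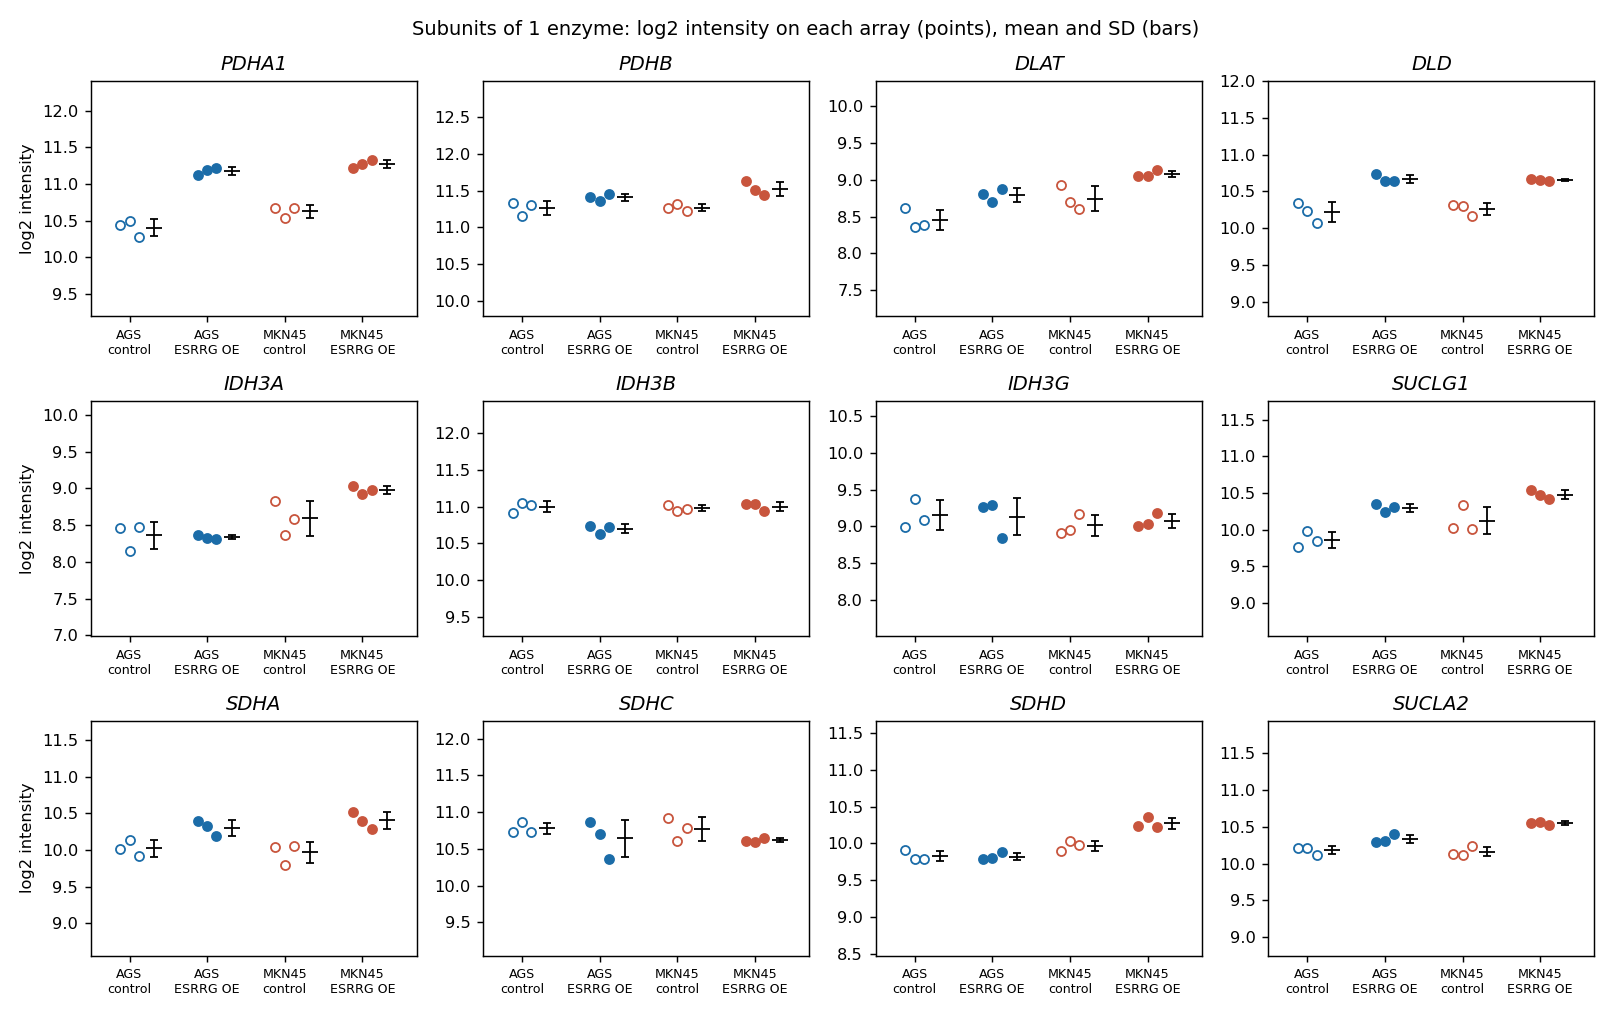
Log2 intensity on each array (vertical axis, points) of subunits of the pyruvate dehydrogenase complex, isocitrate dehydrogenase 3, succinyl-CoA synthetase and succinate dehydrogenase in the 4 groups, with bars for the mean and SD (n = 3 per group). Each panel spans the same number of log2 units; IDH3B is lower in AGS ESRRG OE samples (10.62 to 10.74 against 10.92 to 11.05), and IDH3A and SDHD are higher in MKN45 ESRRG OE samples.

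The ERR response element TCAAGGTCA, or its core AAGGTCA, was searched on both strands in windows of 300 bases, from 250 before to 50 after 1 start site a gene in the RefSeq table used (GRCh38.p14), which were at hand for 36 of the 41 genes. For 34 of them this is the outermost annotated start, while for IDH2 and ETFB it lies 1847 and 11546 bases inside the gene, so their outermost promoters were not searched. The full element contains the core. The core stood in 3 of these 36 windows (8.33%) and in 1083 of 27305 windows of all genes (3.97%), and the full element in 1 (2.78%) and 98 (0.359%). The 3 genes were SUCLA2, SDHB and SDHD. The stretches of SUCLA2 and SDHD are shown because these are the measured genes with a match, written 5′ to 3′ on the strand of the gene with the core or element in capitals. The SUCLA2 stretch is the 250 bases before its start, chr13:48001274-48001523 (minus strand), with the core starting at base -183 from the start site, and the SDHD stretch is chr11:112086875-112086904 (plus strand), with the element on the opposite strand starting at transcribed base 12.
SUCLA2: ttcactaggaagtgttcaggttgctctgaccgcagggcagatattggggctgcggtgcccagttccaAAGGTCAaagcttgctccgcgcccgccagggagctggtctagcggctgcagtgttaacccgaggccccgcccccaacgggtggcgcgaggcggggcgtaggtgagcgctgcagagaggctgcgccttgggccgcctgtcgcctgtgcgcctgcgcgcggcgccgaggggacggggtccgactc
SDHD: gttggtggaTGACCTTGAgccctcaggaac
By the brightest probe, both genes rose in MKN45 (0.39 and 0.30) and neither passed in AGS (0.15 and -0.01). The second SUCLA2 probe rose in AGS as well (0.33, adjusted p over probes = 0.0277, limma). Among the 29 tested genes whose window held no core, 18 rose in each line, beside 24.1% of all genes in AGS and 20.1% in MKN45. The medians of the 29 genes were 0.28 in AGS and 0.34 in MKN45, and PDHA1, CPT1A and UCP2 were among these genes. Without IDH2 and ETFB, 16 of 27 such genes rose in AGS and 17 in MKN45. A match is a description of these letters and not a site, and a window without one says nothing of sites elsewhere.

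The carnitine shuttle carries long-chain acyl groups across the inner mitochondrial membrane. CPT1A, the main carnitine palmitoyltransferase of most epithelial tissues and the entry point of the shuttle, was at 7.88, 7.89 and 7.86 in AGS control and 8.63, 8.61 and 8.54 in AGS ESRRG OE samples. In MKN45 it was at 7.72, 7.71 and 7.84 in control and 8.36, 8.34 and 8.26 in ESRRG OE samples. The groups stood apart in both lines, and CPT1A rose by 0.72 (SE 0.08, adjusted p = 1.85e-06, limma) in AGS and 0.56 (SE 0.08, adjusted p = 7.24e-05, limma) in MKN45. The other CPT1A probes, both dimmer, did not pass in either line (0.13 and 0.16 in AGS, -0.04 and 0.07 in MKN45). CPT1B, the muscle-type enzyme, was close to the background (7.03 to 7.71) and passed in neither line, with -0.15 in AGS and -0.05 in MKN45, though it passed in AGS without control replicate 2 (-0.24, adjusted p = 0.0459). CPT2, which frees the acyl group inside, rose by 0.47 in AGS and 0.46 in MKN45.

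SLC25A20, the translocase that exchanges acylcarnitine for carnitine, was at 9.02, 8.61 and 8.84 in AGS control and 8.84, 8.80 and 9.01 in AGS ESRRG OE samples, which overlapped. The corresponding MKN45 values were 8.78, 8.63 and 8.69 in control and 9.29, 9.30 and 9.19 in ESRRG OE samples, which stood apart. It differed by 0.06 in AGS (adjusted p = 0.656, limma) and rose by 0.56 in MKN45 (adjusted p = 8.39e-05, limma). A dimmer SLC25A20 probe rose in both lines (0.37 and 0.69, adjusted p over probes = 0.00420 and 2.09e-05, limma).

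The acyl-CoA dehydrogenases catalyse the first step of beta-oxidation, each on acyl chains of another length. All 3 tested rose in both lines, beside 24.1% of all genes in AGS and 20.1% in MKN45. ACADM, the medium-chain enzyme and a classical ERR target, was at 9.97, 9.72 and 9.84 in AGS control and 10.15, 10.03 and 10.23 in AGS ESRRG OE samples. In MKN45 it was at 9.94, 9.92 and 9.84 in control and 10.24, 10.29 and 10.41 in ESRRG OE samples. The groups did not overlap in either line but lay within 0.1 of each other in AGS, where the rise of 0.29 (adjusted p = 0.0127, limma) was lost without control replicate 2 (adjusted p = 0.0559). In MKN45 ACADM rose by 0.42 (adjusted p = 9.12e-04, limma). Its slightly dimmer probe gave 0.15 in AGS (adjusted p over probes = 0.208) and a rise of 0.39 in MKN45 (0.00343).

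ACADVL, the very-long-chain enzyme, was at 11.76, 11.75 and 11.67 in AGS control and 12.46, 12.52 and 12.32 in AGS ESRRG OE samples. For MKN45 the values were 11.19, 10.79 and 11.10 in control and 11.76, 11.65 and 11.59 in ESRRG OE samples. The groups stood apart in both lines, and the MKN45 ESRRG OE samples overlapped with the AGS control samples. ACADVL rose by 0.70 (SE 0.08, 1.63-fold, adjusted p = 4.82e-06, limma) in AGS and 0.64 (SE 0.10, 1.56-fold, adjusted p = 2.04e-04, limma) in MKN45. Its other probes, both dimmer, rose in AGS (0.85 and 0.90, adjusted p over probes = 3.02e-05 and 2.09e-06, limma), while in MKN45 the brighter of these did not pass (0.23, 0.105) and the dimmer rose (0.57, 7.23e-04). ACADS, the short-chain enzyme, rose by 0.44 in AGS, from 7.61 to 7.63 in control to 7.95 to 8.14 in ESRRG OE samples, and by 0.53 in MKN45. ACADL, the long-chain enzyme, was detected on 2 of 12 arrays, with group means from 6.84 to 6.97, and no fold is given.

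DECR1, a reductase for unsaturated acyl chains, rose most among the later steps. It was at 9.63, 9.69 and 9.72 in AGS control and 10.57, 10.41 and 10.59 in AGS ESRRG OE samples, and at 9.99, 9.97 and 9.83 against 10.54, 10.47 and 10.47 in MKN45. The groups did not overlap, and the rise was 0.84 (SE 0.08, 1.80-fold, adjusted p = 6.41e-07, limma) in AGS and 0.57 (SE 0.08, 1.48-fold, adjusted p = 7.35e-05, limma) in MKN45. ECI1, an isomerase that also serves unsaturated chains, was at 8.85, 9.30 and 8.92 in AGS control and 9.62, 10.03 and 9.53 in AGS ESRRG OE samples, and rose by 0.70 (adjusted p = 3.65e-04, limma). On the MKN45 arrays it was at 8.95, 9.06 and 8.92 in control and 9.33, 9.22 and 9.13 in ESRRG OE samples, a rise of 0.25 (adjusted p = 0.0254) that was lost without control replicate 1 or 3 or ESRRG OE replicate 1 or 2 of MKN45 (adjusted p from 0.0634 to 0.116).

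The steps between the dehydrogenases and thiolysis moved little by these probes, of which that of HADHA was dim (group means from 7.60 to 8.11). With background correction the HADHA difference in MKN45 was 0.35 (adjusted p = 0.0533, limma). HADHA, the hydratase and dehydrogenase subunit of the trifunctional protein, rose by 0.27 in AGS and 0.22 in MKN45 (adjusted p = 0.0197 and 0.0478, limma), and its partner HADHB, the thiolase subunit, differed by 0.19 and 0.18 without passing (0.0813 and 0.0751). HADHA lost its call without AGS control replicate 3 or ESRRG OE replicate 1 or 2 (adjusted p from 0.0598 to 0.106) and without any MKN45 array but control replicate 3 (0.0789 to 0.141), while HADHB passed in AGS without control replicate 1 (0.0268). ECHS1, the short-chain hydratase, differed by -0.01 in AGS and 0.01 in MKN45, and HADH, the dehydrogenase for shorter chains, by 0.11 and 0.09, all with overlapping groups. ACAA2, the mitochondrial thiolase, rose by 0.27 in AGS (adjusted p = 0.0189, limma) and not in MKN45 (0.08). The AGS call for ACAA2 was lost without control replicate 1 or ESRRG OE replicate 2 or 3 (adjusted p from 0.0547 to 0.0826).

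Electron transfer flavoprotein, built from ETFA and ETFB, takes electrons from the acyl-CoA dehydrogenases to ETFDH, which passes them to ubiquinone. ETFDH rose by 0.34 in AGS and 0.52 in MKN45, with groups apart in both (8.24 to 8.27 against 8.54 to 8.65, and 8.14 to 8.34 against 8.69 to 8.82). ETFA rose by 0.26 in AGS and 0.39 in MKN45, and its AGS call was lost without control replicate 3 or ESRRG OE replicate 1 of AGS (adjusted p = 0.0761 and 0.0555, limma). ETFB was at 9.49, 9.74 and 9.51 in AGS control and 10.00, 10.13 and 10.08 in AGS ESRRG OE samples, which stood apart. In MKN45 it was at 9.69, 9.95 and 9.77 in control and 9.81, 9.95 and 9.79 in ESRRG OE samples, which overlapped. ETFB rose by 0.49 in AGS (adjusted p = 2.965e-04, limma) and differed by 0.04 in MKN45 (adjusted p = 0.740).

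UCP2 is an inner membrane protein of the uncoupling family that is known to export metabolites from mitochondria. By the brightest probe of each gene, UCP2 was the 1 gene that fell in both lines. With the mean of all probes of a gene, SDHC also fell in both (-0.43 in AGS and -0.23 in MKN45, adjusted p = 4.96e-04 and 0.0131, limma). UCP2 was at 10.04, 10.09 and 10.04 in AGS control and 9.61, 9.60 and 9.46 in AGS ESRRG OE samples. The corresponding MKN45 values were 10.43, 10.30 and 10.33 in control and 9.47, 9.38 and 9.25 in ESRRG OE samples. Every ESRRG OE sample lay below every control sample of both lines. The change was -0.50 (SE 0.08, 1.41-fold lower, adjusted p = 9.40e-05, limma) in AGS and -0.98 (SE 0.08, 1.98-fold lower, adjusted p = 8.36e-07, limma) in MKN45. UCP3, a muscle member of the family, was detected on 0 arrays.

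**Figure D3:**
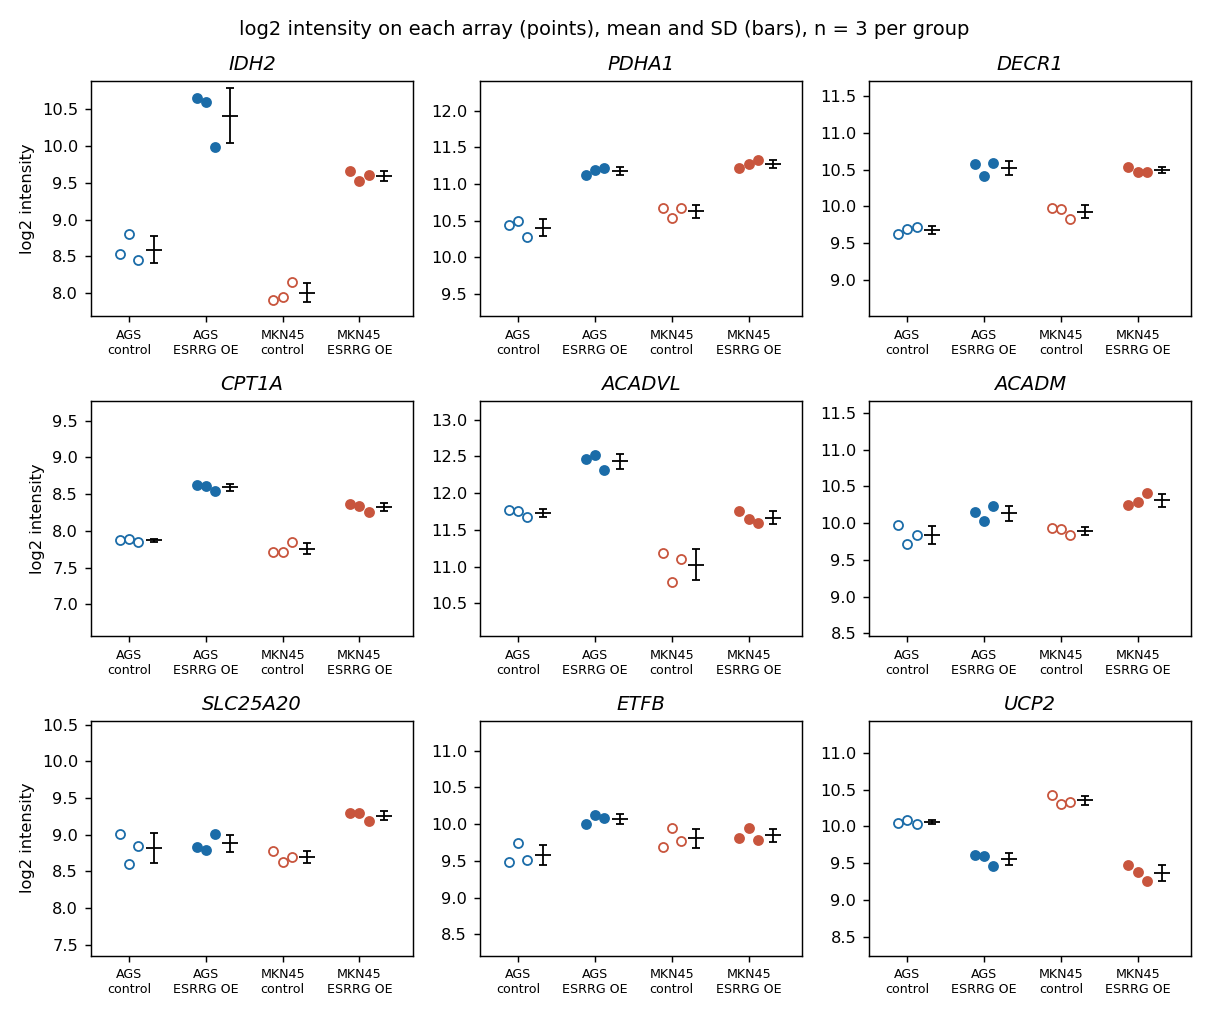
Log2 intensity on each array (vertical axis, points) of 9 genes in the 4 groups, with bars for the mean and SD (n = 3 per group); each panel spans the same number of log2 units. IDH2 is higher and UCP2 lower in all ESRRG OE samples of each line, whereas SLC25A20 stands apart in MKN45 alone and ETFB in AGS alone.

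Whether the lines responded alike was tested as the difference of their responses, MKN45 minus AGS. It passed for 3 of the 36 genes, SLC25A20, ETFB and UCP2, against 11.7% of all 11563 genes (5.65% with a higher and 6.07% with a lower response in MKN45). SLC25A20 responded more in MKN45 (0.50, SE 0.13, adjusted p = 0.0198, limma), ETFB responded less (-0.44, SE 0.13, adjusted p = 0.0270), and UCP2 fell further (-0.49, SE 0.11, adjusted p = 0.00799). The call for SLC25A20 was lost without AGS control replicate 1 or ESRRG OE replicate 2 (adjusted p = 0.0592 and 0.0597). That for ETFB was lost without AGS control replicate 1 or 3, AGS ESRRG OE replicate 2, MKN45 control replicate 2 or MKN45 ESRRG OE replicate 1 or 3 (adjusted p from 0.0586 to 0.0736). Background correction, scaling to one median and a test with each probe's own spread also ended both calls (adjusted p from 0.0623 to 0.364). The UCP2 difference was lost only with the arrays scaled to one median (-0.38, adjusted p = 0.192). The second brightest ETFB probe rose by 0.34 in AGS and gave -0.14 in MKN45. The dimmer SLC25A20 probe rose in both lines, by 0.37 in AGS and 0.69 in MKN45.

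For 33 genes the difference between the responses did not pass, which does not show that the lines responded alike. IDH3B (0.32, adjusted p = 0.0518, limma), OGDH (0.40, 0.0589), SDHD (0.31, 0.0664), IDH3A (0.42, 0.0724) and ECI1 (-0.44, 0.0965) lay closest to the threshold. Each of these 5 passed in some alternative. IDH3B did so without AGS control replicate 1, and OGDH without MKN45 control replicate 3 or ESRRG OE replicate 3. IDH3A passed without AGS control replicate 2 or MKN45 control replicate 1, and ECI1 without AGS control replicate 2 or ESRRG OE replicate 3. SDHD passed with the mean of all probes of a gene (adjusted p = 0.0383, limma). SDHD has 1 probe, so its difference of 0.31 was unchanged there. For IDH2 the responses differed by -0.23 with all arrays and by -0.45 without AGS ESRRG OE replicate 3 (adjusted p = 0.0419).

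**Figure D4:**
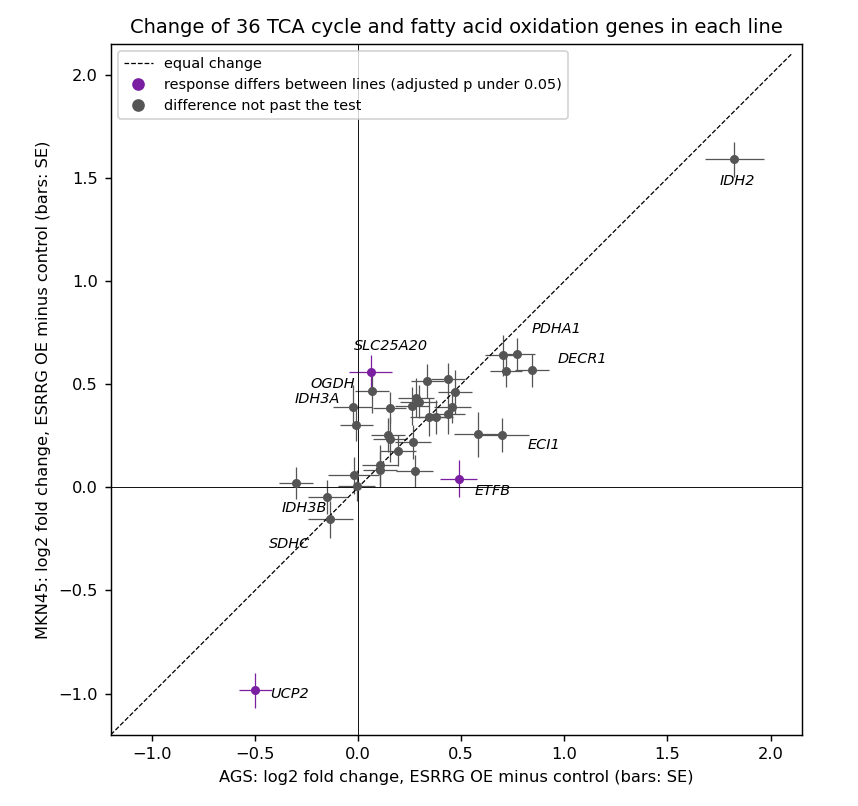
Log2 fold change, ESRRG OE minus control, in AGS (horizontal axis) and MKN45 (vertical axis) for the 36 genes, with bars for the SE; the dashed line marks equal change. SLC25A20, ETFB and UCP2 (purple) are the genes whose responses differed past the test; IDH2 lies at 1.82 and 1.59.

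Without ESRRG overexpression, 7 of the 36 genes differed between the control samples of the lines, against 16.8% of all genes (7.58% higher and 9.23% lower in MKN45). DLAT (0.29), HADHA (0.29), DECR1 (0.25) and UCP2 (0.29) were higher in MKN45, and IDH2 (-0.59), CPT1B (-0.37) and ACADVL (-0.70, 1.63-fold) were lower (limma). Only ACADVL kept its call in every alternative. The DECR1 call was lost without any control array but MKN45 replicate 3 (adjusted p from 0.0519 to 0.108), that of DLAT without AGS control replicate 2 or 3 or MKN45 control replicate 1 (0.120 to 0.191), that of HADHA without AGS control replicate 3 or MKN45 control replicate 1 or 3 (0.0622 to 0.116), and that of UCP2 without MKN45 control replicate 1 (0.0603). ETFB and SUCLG1 passed without AGS control replicate 2 (0.31 and 0.32), SUCLG1 also without MKN45 control replicate 1 or 3, and PDHA1 and IDH3A without MKN45 control replicate 2 (0.27 and 0.34).

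Among ESRRG OE samples 15 of the 36 genes differed between the lines, against 36.4% of all genes (19% higher and 17.4% lower in MKN45). DLAT, IDH3A, IDH3B, OGDH, SUCLA2, SDHD, SLC25A20 and HADHA were higher in MKN45, with IDH3A (0.64), SDHD (0.45) and OGDH (0.39) the largest differences. IDH2 (-0.82), ACADVL (-0.76), ECI1 (-0.50), DLST (-0.41), CPT1A (-0.27), CPT1B (-0.27) and ACAA2 (-0.22) were higher in AGS. IDH2, IDH3A, IDH3B, SDHD, SLC25A20 and ACADVL kept their calls in every alternative. The calls of ACAA2, CPT1B, DLAT, DLST and SUCLA2 were lost without AGS ESRRG OE replicate 2, and that of HADHA without AGS ESRRG OE replicate 3 (adjusted p from 0.0685 to 0.148). Without AGS ESRRG OE replicate 1 the calls of CPT1B, DLST, HADHA and SUCLA2 were also lost, without MKN45 ESRRG OE replicate 3 those of ACAA2, CPT1B, DLAT, DLST and HADHA, without replicate 1 of that group those of ACAA2, HADHA and SUCLA2, and without its replicate 2 those of ACAA2, CPT1B, HADHA and SUCLA2. The ACAA2 call was also lost without AGS ESRRG OE replicate 3, AGS control replicate 3 or MKN45 control replicate 1 or 3, and UCP2 passed without AGS ESRRG OE replicate 3 or MKN45 ESRRG OE replicate 1. With the arrays scaled to one median, 19 genes were higher and 2 lower in MKN45, so the balance between the lines depended on the scaling.

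The lists used held 61 other genes of these pathways. Of the 47 tested in AGS, 18 rose and 14 fell with a median log2 fold change of 0.14, beside the 24.1% of all genes that rose and 27.2% that fell. Of the 47 tested in MKN45, 25 rose and 8 fell with a median of 0.23, beside 20.1% and 20.9%. Among 10 genes of pyruvate entry and of the control of the complex, 2 rose and 2 fell in AGS, led by PDHX (0.56) and PDK3 (-0.44), and of 9 in MKN45, 5 rose, led by PDP1 (0.78), a phosphatase that reactivates the complex. Among 11 genes next to the TCA cycle, 5 rose and 2 fell in AGS and 6 rose and 1 fell in MKN45. PCK2, which makes phosphoenolpyruvate from oxaloacetate in mitochondria, rose most, by 3.02 in AGS and 1.72 in MKN45, from 8.77 ± 0.01 to 11.79 ± 0.05 and from 8.50 ± 0.06 to 10.22 ± 0.29 (SD, n = 3). ACLY, which cleaves citrate in the cytosol, fell most in AGS (-0.83), and SLC25A10, the dicarboxylate carrier, in MKN45 (-0.39).

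Of the other mitochondrial fatty acid oxidation genes, 8 of 16 rose and 5 fell in AGS, and 9 of 17 rose and 4 fell in MKN45. Beside these genes and the peroxisomal ones below stand the shares of all genes. In AGS 24.1% rose and 27.2% fell, and in MKN45 20.1% rose and 20.9% fell. PCCA, a subunit of propionyl-CoA carboxylase, rose most in AGS (0.92) and ECI2, an isomerase, in MKN45 (0.72), while SLC22A5, the plasma membrane carnitine transporter, fell most in AGS (-0.47) and HSD17B10 in MKN45 (-0.34). Of 10 peroxisomal genes, 3 rose and 5 fell in AGS and 5 rose and 3 fell in MKN45. In both lines these counts hold ACOX2 among the rises, detected on 0 control and 3 ESRRG OE arrays, and CROT among the falls, detected on 3 and 0. Both genes entered the test through 1 group alone, in which they had to be higher. Of the 8 genes detected in both groups, 2 rose and 4 fell in AGS, and 4 rose and 2 fell in MKN45. PEX7, an import receptor, rose most in both (0.64 and 0.57), while PEX5, another import receptor, fell most in AGS (-0.89) and DECR2, the peroxisomal counterpart of DECR1, in MKN45 (-0.55).

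Of the receptors and coregulators, ESRRA, the alpha member of the family, rose by 0.68 in AGS (9.21 ± 0.04 to 9.88 ± 0.06, SD, n = 3) and 0.51 in MKN45 (9.14 ± 0.08 to 9.65 ± 0.03). PPARGC1A, which encodes PGC-1alpha, rose by 0.28 in AGS, where it was detected on 2 of 3 control and 3 of 3 ESRRG OE arrays. Its AGS groups lay near the background and overlapped (6.95 to 7.25 in control, 7.20 to 7.49 in ESRRG OE samples). In MKN45 it was detected on 0 of 3 control arrays (mean 6.86) and on 3 of 3 ESRRG OE arrays (7.25), so it entered the test through the group in which it was higher and no fold is given. PPARGC1B, which encodes PGC-1beta, differed by -0.07 and -0.22 without passing. PPRC1, a related coactivator, fell most in both lines (-0.93 and -0.57). In all, 2 of 8 tested genes of this list rose and 2 fell in AGS, beside 24.1% and 27.2% of all genes. The second fall was that of the ESRRG probe itself (-0.37, adjusted p = 0.00532, limma), detected on 3 of 3 control and 1 of 3 ESRRG OE arrays. In MKN45 3 of 7 rose, PPARGC1A counted, and 1 fell, beside 20.1% and 20.9% of all genes.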

How the data were processed

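RNA of 12 samples, 3 control and 3 ESRRG OE of each line, was measured on 12 Illumina BeadChip V4 arrays scanned with a BeadArray Reader, and groups follow the labels. The submitters' processing notes name GenomeStudio, version not given. The deposited intensity of each probe is linear, with neither background correction nor normalization (lowest 69.7, array medians 98.43 to 136.9), and a detection p-value against the negative controls of each array. The authors also deposited log2 values after quantile normalization in limma, which were met within 5e-04 from the deposited intensities, so each array has a median of 6.889.

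Here the intensities were quantile normalized over 12 arrays and put on the log2 scale, without background correction (R 4.3.3, limma 3.58.1). Fold changes of dim probes are understated, and the number of arrays limits the precision. Of 47323 probes, 30113 had 1 gene symbol in the platform annotation, 8 several and 17202 none; the 30074 probes with an identifier in the gene table of GRCh38.p14 kept their symbols. Where a gene had several probes, the one with the highest mean deposited log2 value stood for it (27 listed genes have 1 probe, 6 have 2 and 6 have 3). Probes entered the test of a line when 3 or more of its 6 arrays had a detection p-value under 0.05. Differences were tested with lmFit and eBayes in limma, within each line and, between lines, over all 12 arrays, with Benjamini-Hochberg adjustment over all genes tested and a threshold of 0.05. The random variance test that the study's methods name was not run. The fit was tested on simulated data. Values per array are given for the 4 largest rises and falls past the test in each line, the line-dependent responses, subunits that moved unlike each other, PDK4, CPT1A and ACADM; of the other lists the largest rise and fall past the test, and set genes, are named. The genes and lists were chosen with earlier results of these data known. The alternatives tried were quantile normalization by line, scaling to one median, neqc background correction with an offset of 16, the deposited log2 values, no detection filter or a detection p-value under 0.01, the mean of all probes of a gene, a test with each probe's own spread in place of the moderated one, the replicate number as a block, other sets of arrays in the fit, and leaving out each array.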

Additional observations from a re-analysis of the deposited data

Results flagged for a closer look

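For 3 genes the response to ESRRG overexpression differed between the lines by the test of the difference itself (interaction of line and vector, limma, over all 12 arrays). SLC25A20 responded more in MKN45 by 0.50 log2 units (adjusted p = 0.0198). ETFB responded less in MKN45, with a difference of -0.44 (adjusted p = 0.0270). UCP2 fell further in MKN45, with a difference of -0.49 (adjusted p = 0.00799). Of all 11563 genes tested, 11.7% passed this test, against 8.33% of the 36. The call held in 15 of 20 alternatives for SLC25A20, in 11 of 20 for ETFB and in 19 of 20 for UCP2.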

How the results depend on the processing

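Of the calls on the listed genes, 13 of 22 in AGS, 14 of 24 in MKN45, 0 of 3 for the difference between the responses, 1 of 7 between the control groups and 6 of 15 between the ESRRG OE groups held in every alternative; the cause of the losses was not tested. Over single genes, 3185 values under an alternative kept direction and call, 128 lost the call, 67 gained one and 2 reversed, both SDHC between the ESRRG OE groups (-0.02, but 0.30 with scaling to one median and 0.34 with the mean of its probes).

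A test with each probe's own spread and equal variances gave 13 rises in AGS, 15 changes and 14 rises in MKN45, 1 lower response in MKN45, 4 differences (2 higher) between the control groups and 4 genes lower in MKN45 ESRRG OE samples. It called 4246 of all genes in AGS, 3049 in MKN45 and 689 for the responses, against 5605, 4609 and 1355. Scaling to one median gave 1 fall in AGS, 1 differing response (0 lower), and 19 genes higher and 2 lower between the ESRRG OE groups. The share of higher genes among all calls moved from 52.3% to 85.6% between the ESRRG OE groups, from 45.1% to 76.5% between the controls and from 48.2% to 63.8% for the responses, of which it called 381. With the mean of a gene's probes, 2 genes fell in MKN45 and 5 responses differed (3 higher). Background correction gave 1 differing response (0 higher, 1 lower; 890 over all genes) and 2 genes higher in MKN45 controls. No detection filter and a detection p-value under 0.01 each gave 2 higher responses. The 6 control arrays alone gave 2 genes higher in MKN45. Without one array at a time, rises numbered 17 to 20 in AGS and 20 to 23 in MKN45, falls 2 to 3 and 1 to 2, differing responses 1 to 5 (higher 0 to 2, lower 1 to 4), differences between controls 4 to 8 (higher 1 to 5), and genes lower in MKN45 ESRRG OE samples 4 to 8.

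The labels do not say whether the replicate numbers pair the samples. Same-numbered control and ESRRG OE samples deviated together at r = -0.11, 0.261 and -0.016 in AGS and 0.243, 0.00429 and -0.0152 in MKN45. These values do not settle whether the samples are paired. With the replicate block, 20 genes rose and 2 fell in AGS, 24 rose and 1 fell in MKN45, 5 responses differed (2 higher, 3 lower), and 4 and 3 genes differed between the controls and 8 and 7 between the ESRRG OE groups. Dim probes, among them those of PDK4, ACADL and UCP3 and, of the genes tested, CPT1B, ACAA2 and HADHA, limit what can be seen of these genes.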
